A study of Homo sapiens with 6 samples.

Results

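The tumor necrosis factor (TNF) superfamily was examined in SW839 cells, an established human renal cell carcinoma (RCC) line, with and without knockdown of the ubiquitin ligase RNF25. Members were the genes of the deposited expression table whose symbol starts with TNFSF or TNFRSF and a number, together with the family genes that carry another name (TNF, LTA, LTB, LTBR, CD40, CD27, CD70, FAS, FASLG, NGFR, EDA, EDAR and RELT). The rule found 41 members among 30267 genes, of which 16 were ligands and 25 were receptors, and it used no measured value. Members were, however, chosen with earlier results of these data known. Among the receptors, 8 carry a cytoplasmic death domain, 3 are decoys and 14 are of other kinds. CD40LG, TNFSF11, TNFRSF6B, TNFRSF13B, TNFRSF17 and EDA2R are not analysed here.

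RNA sequencing of total RNA was done on 3 libraries of cells carrying a short hairpin RNA against RNF25 (shRNF25) and 3 libraries of control cells (shControl), which per the study's methods carried the pLKO lentiviral vector. Both groups were the same line, grown in serum with penicillin and streptomycin and, per the methods, selected with puromycin, and the labels name no cytokine or other stimulus in either. The library names of the knockdown samples carry a single hairpin letter, so effects of the hairpin other than on RNF25 cannot be told apart from the loss of RNF25. The labels call the libraries biological triplicates, and they attach the shRNF25 plasmid to all 6 samples in the treatment text, so the grouping rests on titles, genotype and library names. The control library names also differ in form from those of the knockdown, and a difference in preparation cannot be told apart from the groups.

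TNF superfamily ligands are mostly membrane proteins that act as trimers, either on the cell surface or after shedding by a metalloprotease. Their receptors pass the signal through adaptor proteins of the TRAF family to the IκB kinases and the transcription factor NF-κB, or, where the receptor has a death domain, also through FADD or TRADD to caspases. TNF, LTB and CD40 are themselves well-known NF-κB target genes, and so are several inhibitors of the pathway. In a tumor the ligands are often made by leukocytes, while epithelial cells express many of the receptors.

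RNF25 itself was read at 694, 534 and 536 normalized counts in the shControl libraries and at 214, 246 and 265 in the shRNF25 libraries, a fall by 1.27 ± 0.15 (SE) on the log2 scale (limma, Benjamini-Hochberg adjusted p = 0.000585), so the labels and the targeted transcript go the same way. Recovered reads per library ran from 18647460 to 19943154. Pearson correlations of log2 values were 0.994 among the shRNF25 libraries, 0.976 to 0.987 among the shControl libraries and 0.955 to 0.966 between groups, so the control libraries varied more among themselves. In shControl replicate 1 the mitochondrial transcript MT-CO1 took 4.54% of reads, against 1.46% to 1.80% in the other libraries. The list of renal epithelial and RCC markers held 11 genes, of which 9 were in the table and 6 passed the filter on low values. Mean normalized counts in shControl and shRNF25 were 28459 and 36519 for KRT8, 5488 and 4385 for EPCAM and 127 and 94.0 for PAX8. The hypoxia marker CA9 was low, averaging 23.6 and 4.94. CDH6, averaging 5.00 and 6.21, and LHX1, averaging 0.702 and 1.84, were also under the filter. VIM, the mesenchymal marker on the same list, averaged 355 and 832, with every shRNF25 library above every shControl library. Of 11 listed leukocyte markers 9 were in the table and 2 passed the filter on low values. The 2 were PTPRC, averaging 11.4 and 9.52 normalized counts, and ITGAM, averaging 21.1 and 39.6. For ITGAM every shRNF25 library was above every shControl library. CD3E averaged 0.360 and 0.929, and the summed leukocyte list ran from 47.5 to 57.5 in shControl and from 61.0 to 84.7 in shRNF25. Endothelial and fibroblast marker lists summed to 498 to 700 and 1128 to 1304 in shControl and to 498 to 651 and 887 to 1031 in shRNF25. Most of these sums came from PECAM1 and COL1A1, and single endothelial markers moved in opposite directions without overlap of the groups, CDH5 averaging 125 and 5.89 normalized counts and KDR 24.5 and 84.5. Their part in the results below was not tested. Because these were bulk samples, fewer expressing cells and less RNA per cell cannot be told apart in any result that follows.

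The test took genes that reached 10 normalized counts in 3 or more libraries, which left 29 of the 41 members (11 ligands and 18 receptors) among 16554 genes. This minimum equals the size of a group, so a gene could enter through its higher group alone. TNF and TNFSF14 did so through shControl, and TNFRSF9 through shRNF25. TNFSF4 reached 10 in all shRNF25 libraries but not in all shControl libraries. The shares below include such genes. A change had to pass a Benjamini-Hochberg adjusted limma p of 0.05 over all tested genes and a fold change of 1.5. Against shControl, 6 members were lower in shRNF25 (TNF, TNFSF14, LTB, CD40, RELT and FAS) and 3 were higher (TNFRSF11A, TNFRSF19 and TNFSF4), while 20 did not pass. The 6 lower members were 20.7% of those tested, beside 7.1% of all tested genes, and the 3 higher members were 10.3%, beside 8.65%. The median log2 fold change was -0.08 over the tested members and -0.01 over all tested genes. Values of the groups did not overlap for 8 members with shRNF25 lower and 7 with shRNF25 higher, where all tested genes gave 21.8% and 20.7%. An exact two-sided permutation test of each of the 9 changed members gave p = 0.1, the smallest that 3 against 3 libraries allow.

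TNF, LTB and TNFSF14, the ligands that fell, gave the largest log2 changes of the family, and the stretches before their transcription starts are shown because these are the places where a shared promoter motif could lie. Promoter windows from RefSeq (GRCh38.p14) were found for 8 of the 9 changed members, in 14 windows, and CD40 was not among them. Each stretch below is the 250 bases before the start, 5′ to 3′ on the strand of the gene, with a match to the TATA box TATAAA or to the NF-κB consensus in capitals.
TNF, chr6:31575315-31575564, plus strand: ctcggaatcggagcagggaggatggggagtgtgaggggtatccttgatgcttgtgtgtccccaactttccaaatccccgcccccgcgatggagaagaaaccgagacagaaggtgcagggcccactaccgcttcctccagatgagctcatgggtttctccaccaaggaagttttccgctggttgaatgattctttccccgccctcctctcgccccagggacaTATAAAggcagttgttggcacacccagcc
LTB, chr6:31582426-31582675, minus strand: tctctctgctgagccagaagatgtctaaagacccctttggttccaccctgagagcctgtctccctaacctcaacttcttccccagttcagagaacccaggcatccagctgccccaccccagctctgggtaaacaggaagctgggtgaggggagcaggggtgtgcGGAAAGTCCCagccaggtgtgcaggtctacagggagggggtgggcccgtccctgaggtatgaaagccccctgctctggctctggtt
TNFSF14, chr19:6670161-6670410, minus strand: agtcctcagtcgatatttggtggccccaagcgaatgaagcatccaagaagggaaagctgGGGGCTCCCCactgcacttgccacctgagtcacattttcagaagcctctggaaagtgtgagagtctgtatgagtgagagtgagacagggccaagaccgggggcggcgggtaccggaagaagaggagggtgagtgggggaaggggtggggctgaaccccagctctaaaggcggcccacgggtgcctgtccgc

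In the TNF stretch the capitals mark TATAAA, beginning 29 bases before the start, and no match to the NF-κB consensus was found there. The LTB stretch held an NF-κB consensus match beginning 86 bases before its RefSeq start, in the part inside the GENCODE 29 gene. In TNFSF14 such a match began 191 bases before the start, and a match to the AP-1 motif TGANTCA (N, any base) followed, beginning 166 bases before it. On either strand, the NF-κB consensus of 10 bases occurred in 5.21% of 35116 RefSeq stretches of the same length. Counted by gene, it occurred in 6.28% of 27305 genes. TATAAA occurred in 10.7% of the stretches, TGANTCA in 6.57% and the cyclic AMP response motif TGACGTCA in 1.65%. FAS had 3 windows, of which 1 held an NF-κB consensus match 157 bases before its start and another a TGANTCA match 242 bases before its own. The FAS stretch with the NF-κB consensus match also lies inside the GENCODE 29 gene. The windows of RELT, TNFRSF11A, TNFRSF19 and TNFSF4 held none of the 4 motifs. A match is a run of letters and not a measured binding site, and a missing match says only that these letters are not in this stretch.

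Among the ligands, TNF fell the most. TNF, the founding cytokine of the family and a strong activator of NF-κB, lies on chromosome 6 from 31575567 to 31578336 on the plus strand (GENCODE 29, GRCh38). Its normalized counts were 61.9, 82.1 and 74.5 in shControl and 0.911, 1.85 and 8.58 in shRNF25. In recovered reads these are 56, 80 and 69 against 1, 2 and 9. All 3 knockdown libraries, the highest being replicate 3, lay far below the lowest control library. The mean of 72.8 ± 10.2 (SD, n = 3) dropped to 3.78 ± 4.18 (SD, n = 3), or 5.19% of shControl. On the log2 scale TNF fell by 4.30 ± 0.53 (SE), with a 95% interval from -5.49 to -3.10 (limma adjusted p = 0.00078). The log2 change was -3.24 with a pseudocount of 5 in place of 1 and -4.79 after quantile normalization. Leaving out each library in turn gave log2 changes from -4.97, without shRNF25 replicate 3, to -3.81, without shRNF25 replicate 1.

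LTB encodes lymphotoxin beta, the membrane-anchored subunit that binds the LTBR receptor together with lymphotoxin alpha, and it is the nearest gene downstream of TNF in the family, 2188 bases away on the opposite strand (chromosome 6, 31580525 to 31582522). It was read at 483, 701 and 1167 normalized counts in shControl and at 140, 135 and 227 in shRNF25. The control libraries spread more than 2-fold among themselves, yet the groups did not overlap. The means were 784 ± 349 and 167 ± 51.6 (SD, n = 3 each), 4.68 times higher in shControl, and the log2 change was -2.17 ± 0.31 (SE; limma adjusted p = 0.0016). The third gene of this cluster, LTA, ends 1242 bases before TNF and encodes lymphotoxin alpha. It stayed under the filter, with 6.63, 1.03 and 3.24 normalized counts in shControl and 8.20, 3.69 and 4.77 in shRNF25, so that no change was detectable at this depth.

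TNFSF14, which encodes LIGHT, a ligand of LTBR and of TNFRSF14, lies on chromosome 19 (6661253 to 6670588, minus strand). Its normalized counts were 35.4, 19.5 and 34.5 in shControl and 4.56, 0.924 and 1.91 in shRNF25, from 32, 19 and 32 reads against 5, 1 and 2. No knockdown library came near the lowest control library. The log2 change was -3.25 ± 0.46 (SE; limma adjusted p = 0.0015), with means 12.1 times higher in shControl. It was -2.21 with a pseudocount of 5 and -3.82 after quantile normalization. CD70 and TNFSF9, costimulatory ligands of T cells that precede TNFSF14 in the same cluster on chromosome 19, were not past the criteria. CD70 ends 57149 bases before TNFSF14 and gave 46.4, 53.4 and 58.3 normalized counts in shControl against 53.8, 44.3 and 51.5 in shRNF25, overlapping groups, with a 95% interval of the log2 change from -0.51 to 0.36. TNFSF9 gave 120, 214 and 360 against 143, 105 and 153, and its log2 change of -0.67 (limma adjusted p = 0.198) became -1.07 (limma adjusted p = 0.00668) without shControl replicate 1, the lowest control library. Without shControl replicate 3, the highest, it was -0.28 (limma adjusted p = 0.466), and of the 6 fits that left out a library only the first called TNFSF9.

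TNFSF4 was the only ligand past the criteria in the upward direction. It encodes OX40 ligand, a costimulator of T cells, and lies on chromosome 1 (173183734 to 173207313, minus strand), 132770 bases from TNFSF18. Its normalized counts were low, at 11.1, 5.13 and 9.71 in shControl and 26.4, 21.2 and 21.0 in shRNF25. The groups did not overlap, and the mean was 2.65 times higher in shRNF25, with a log2 change of 1.36 ± 0.34 (SE; limma adjusted p = 0.0200). This call rested on having all 3 knockdown libraries, since the limma adjusted p was 0.0994, 0.0691 and 0.0678 without shRNF25 replicates 1, 2 and 3. In those fits its log2 change was 1.26, 1.41 and 1.42, and 748, 824 and 831 of all tested genes were higher, beside 1432 with every library. TNFSF18, the ligand of TNFRSF18, gave 14.4, 10.3 and 9.71 against 28.2, 16.6 and 13.3 normalized counts, with overlapping groups and a log2 change of 0.67 (limma adjusted p = 0.203).

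The other 4 tested ligands gave small differences that were not past the criteria. TNFSF12, which encodes TWEAK, gave 376, 251 and 193 normalized counts in shControl against 221, 242 and 221, overlapping groups with a log2 change of -0.21. The log2 change of TNFSF15, which encodes TL1A, was -0.25, while TNFSF13, which encodes APRIL, stood at 0.25 and TNFSF10, which encodes TRAIL, at 0.39. TNFSF10 was read at 40.9, 17.4 and 19.4 normalized counts in shControl and at 31.9, 33.2 and 30.5 in shRNF25, so the groups overlap through shControl replicate 1 alone, and without that library the log2 change was 0.76 (limma adjusted p = 0.0343). In the other 5 fits without a library it was 0.17 to 0.42 and not past the criteria. TNFSF12 and TNFSF13 lie 401 bases apart on chromosome 17. They share 33.5% and 52.9% of their 50-base words with an annotated readthrough transcript of both. Reads on those words cannot be split with certainty between each gene and the readthrough. Ligands as a group held 6.40% to 7.86% of the reads on members in shControl and 4.49% to 4.94% in shRNF25. LTB made up most of that difference, since the ligands other than LTB held 3.89% to 5.29% in shControl and 3.93% to 4.36% in shRNF25, ranges that overlap.

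**Figure D1:**
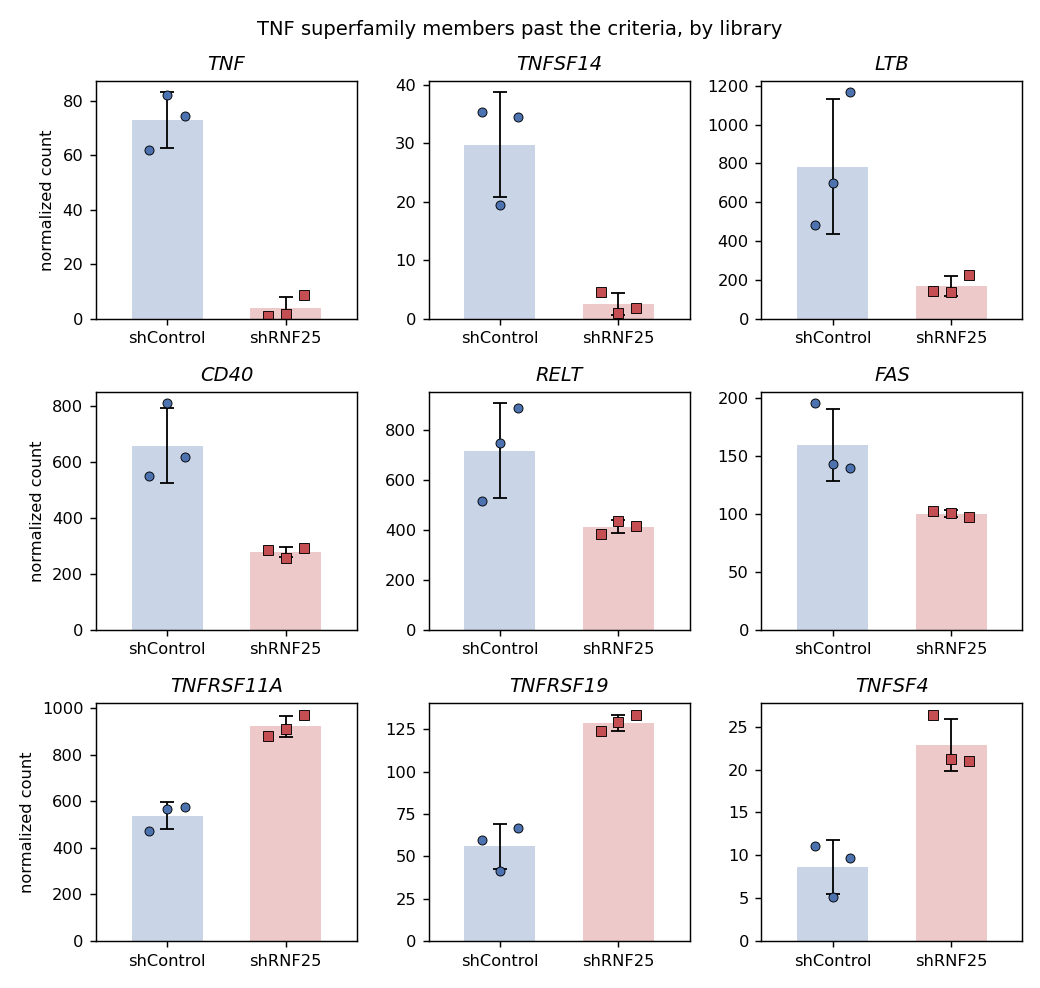
Normalized counts (vertical axes, each from 0) of the 9 members past the criteria in the 3 shControl (circles) and 3 shRNF25 (squares) libraries, with bars for the means and whiskers for ± 1 SD. In every panel the groups do not overlap, and TNF has the largest ratio of means, 72.8 against 3.78. The panels have different vertical scales.

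Among the receptors, CD40, RELT and FAS fell. CD40, the receptor through which CD40 ligand activates B cells, macrophages and some epithelial cells, lies on chromosome 20 (46118272 to 46129863, plus strand). It was read at 552, 811 and 617 normalized counts in shControl and at 285, 257 and 293 in shRNF25. Each knockdown library held about the same level, and the mean fell from 660 ± 135 to 278 ± 18.9 (SD, n = 3 each), or to 42.2% of shControl, a log2 change of -1.23 ± 0.16 (SE; limma adjusted p = 0.000965). RELT, an orphan receptor on chromosome 11 (73376264 to 73397474, plus strand), gave 516, 748 and 890 against 385, 436 and 417. Its log2 change was -0.77 ± 0.19 (SE; limma adjusted p = 0.0196), and leaving out shControl replicate 2 or shRNF25 replicate 1, 2 or 3 raised the limma adjusted p to 0.0664, 0.0927, 0.0589 and 0.0711.

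FAS was the only death domain receptor past the criteria. FAS triggers caspase 8 when bound by FAS ligand, and the gene lies on chromosome 10 (88990582 to 89015785, plus strand), where it overlaps ACTA2 on the opposite strand by 758 bases. Its normalized counts were 196, 144 and 140 in shControl and 103, 101 and 97.2 in shRNF25. The groups did not overlap, shControl replicate 1 was the highest library, and the log2 change was -0.65 ± 0.17 (SE; limma adjusted p = 0.0260). Without shControl replicate 1 the log2 change was -0.50, under the fold criterion, and without shRNF25 replicate 1, 2 or 3 the limma adjusted p was 0.0918, 0.0957 and 0.107. ACTA2 averaged 18.5 and 12.1 normalized counts, and its part in the FAS values was not tested.

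TNFRSF1A, the main TNF receptor of epithelial cells, was not past the criteria. It gave 1481, 1528 and 1805 normalized counts in shControl and 1968, 1846 and 1897 in shRNF25, every knockdown library above every control library, with a log2 change of 0.25 ± 0.11 (SE; limma adjusted p = 0.140). TNFRSF10B, a TRAIL receptor, was read at 2880, 3491 and 3665 against 2491, 2427 and 2505, a log2 change of -0.43 (limma adjusted p = 0.0289), which passed the p criterion at a fold change of 1.34 and so was not counted. Without shRNF25 replicate 2 its limma adjusted p was 0.124. TNFRSF21, which encodes death receptor 6, gave 8229, 7898 and 11163 against 7561, 7455 and 7790, groups that did not overlap, with a log2 change of -0.24 (limma adjusted p = 0.249). The other TRAIL receptor with a death domain, TNFRSF10A, had a log2 change of -0.21, TNFRSF25, the receptor of TL1A, one of 0.29 and NGFR, the low-affinity neurotrophin receptor, one of 0.27, all at limma adjusted p values above the criterion. EDAR, the ectodysplasin receptor, was at 3 reads or fewer in every library. Of the 7 tested death domain receptors, 1 was lower past the criteria (14.3%, beside 7.1% of all tested genes). None was higher past them by limma, edgeR or DESeq2, beside 8.65% of all tested genes by limma. Upward, 1 had an unadjusted limma p under 0.05.

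TNFRSF11B, a secreted decoy receptor known as osteoprotegerin, varied widely among the control libraries. Its normalized counts were 329, 337 and 80.9 in shControl and 73.8, 83.1 and 77.2 in shRNF25, so shControl replicate 3 sat with the knockdown libraries. The log2 change was -1.41 ± 0.47 (SE; limma adjusted p = 0.0614) and was not past the criteria, whereas without shControl replicate 3 it was -2.08 (limma adjusted p = 0.000119). Without shControl replicate 1 or 2 it was -1.07 and -1.06 (limma adjusted p = 0.1001 and 0.186), and of the 6 fits that left out a library only that without shControl replicate 3 called it. On recovered reads it passed both with edgeR (log2 change -1.64, adjusted p = 0.0264) and with DESeq2 (-1.66, adjusted p = 0.000422). The other decoys, TNFRSF10C and TNFRSF10D, which bind TRAIL without passing a death signal, were under the filter. TNFRSF10D gave 2.21, 1.03 and 1.08 normalized counts against 11.8, 7.39 and 4.77. It was read in 4 reads over the shControl libraries and 26 over the shRNF25 libraries, a ratio of 5.65 with an exact 95% counting interval from 1.96 to 22.3. Without the filter it was past the criteria (limma log2 change 1.84, adjusted p = 0.0309).

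TNFRSF11A and TNFRSF19 were the receptors that rose. TNFRSF11A, which encodes RANK, the receptor through which osteoclasts mature, lies on chromosome 18 (62325287 to 62391292, plus strand). It was read at 473, 565 and 576 normalized counts in shControl and at 882, 911 and 972 in shRNF25. The mean rose from 538 ± 56.7 to 922 ± 46.1 (SD, n = 3 each), 1.71 times, with a log2 change of 0.78 ± 0.12 (SE; limma adjusted p = 0.0023). TNFRSF19, known as TROY, lies on chromosome 13 (23570370 to 23676104, plus strand) and gave 59.7, 41.04 and 66.9 against 124, 129 and 133. The knockdown libraries lay close together and well above the controls, and the log2 change was 1.22 ± 0.21 (SE; limma adjusted p = 0.0036). Its mean was 2.31 times higher in shRNF25.

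The remaining tested receptors were not past the criteria. LTBR, the shared receptor of lymphotoxin beta and LIGHT, gave 4177, 3755 and 4070 normalized counts in shControl and 3513, 3893 and 3516 in shRNF25, a log2 change of -0.14 with a 95% interval from -0.36 to 0.09. TNFRSF12A, the TWEAK receptor, gave 2581, 4485 and 3887 against 3489, 3658 and 3580, the knockdown libraries lying within the range of the controls. TNFRSF14, the second LIGHT receptor, gave 164, 263 and 274 against 328, 310 and 288, every knockdown library above every control, with a log2 change of 0.44 (limma adjusted p = 0.151). TNFRSF9, the receptor of the TNFSF9 ligand on activated T cells, gave 3.32, 9.23 and 9.71 against 16.4, 11.1 and 15.3, a log2 change of 0.95 (limma adjusted p = 0.139). The receptor of BAFF, TNFRSF13C, had a log2 change of 0.36 and TNFRSF18, known as GITR, one of -0.01, which turned to 0.25 without shControl replicate 2 and to 0.04 after quantile normalization.

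**Figure D2:**
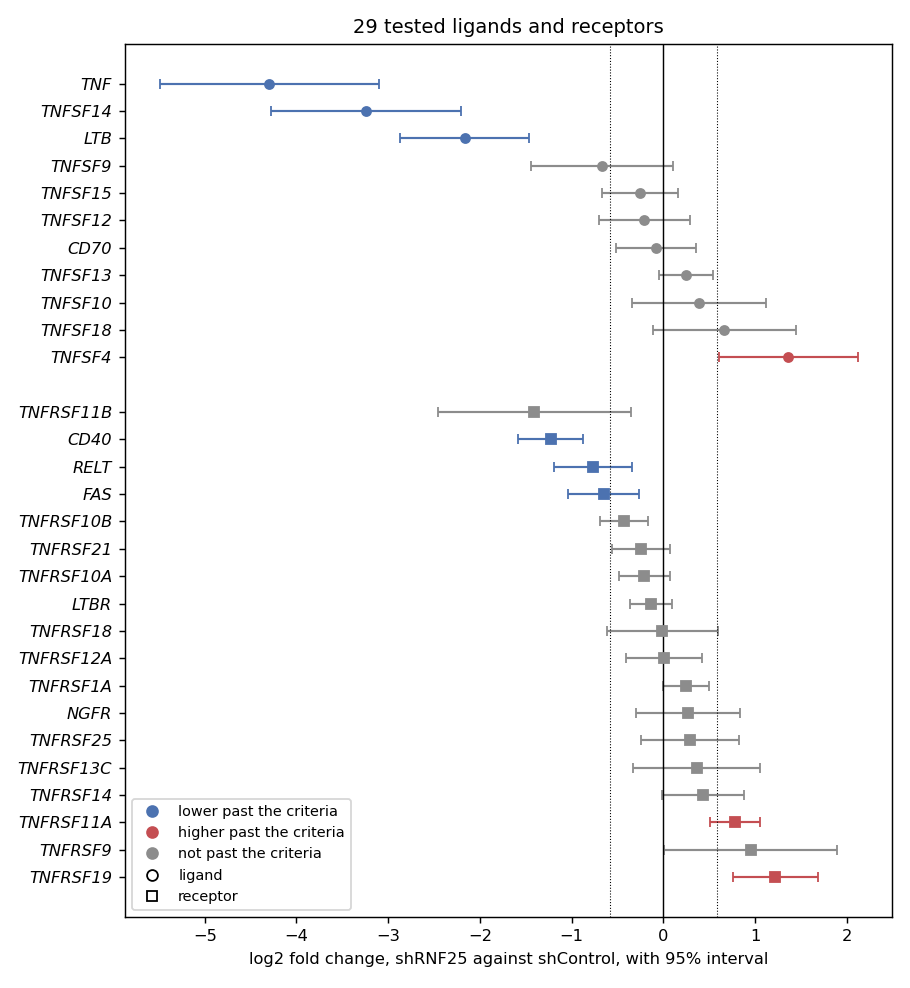
Log2 fold change, shRNF25 against shControl (horizontal axis), of the 29 tested members with 95% limma intervals, ligands (circles) above and receptors (squares) below, and dotted lines at a fold change of 1.5. The 3 ligands that fell (TNF -4.30, TNFSF14 -3.25, LTB -2.17) lie furthest from 0, and most receptors lie between the dotted lines.

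Besides LTA, EDAR, TNFRSF10C and TNFRSF10D, 8 members were under the filter and had no test there. TNFRSF1B, the second TNF receptor, gave 1.11, 2.05 and 2.16 normalized counts against 9.11, 5.54 and 3.81. It was read in 5 reads over the shControl libraries and 20 over the shRNF25 libraries, a ratio of 3.48 (exact 95% counting interval 1.27 to 11.8), with every knockdown library above every control. Without the filter its log2 change was 1.32 (limma adjusted p = 0.0951). TNFSF13B, which encodes BAFF, gave 1.11, 1.03 and 1.08 against 4.56, 1.85 and 0.953, from 3 and 8 reads, a ratio of 2.32 (interval 0.556 to 13.6). TNFRSF4, the OX40 receptor, gave 1.11, 3.08 and 4.32 against 0.911, 0.924 and 2.86, from 8 and 5 reads, a ratio of 0.543 (interval 0.140 to 1.88). Both intervals include a ratio of 1. FASLG, CD27 and TNFRSF8 were at 3 reads or fewer in every library, and TNFSF8 and EDA averaged 5.33 and 5.26 normalized counts in shControl against 3.08 and 8.39 in shRNF25. Counting intervals cover the sampling of reads only. They were given, also for TNFRSF10D, only for members at 3 reads or fewer throughout 1 group and not the other. The same counts thus chose the genes, and the intervals are not independent evidence of a change.

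Levels were compared between genes as normalized counts per kilobase of the longest coding transcript. In shControl the highest members were receptors, TNFRSF12A at 3222, TNFRSF21 at 2530 and LTBR at 1770, and the ranges of the first 2 overlapped. On the opposite strand CLDN6 overlaps TNFRSF12A by 1627 bases and SCNN1A overlaps LTBR by 2686 bases. Their part in these levels was not tested. LTB followed at 873, level within its spread with TNFRSF10B at 807 and TNFRSF1A at 722. The next ligands were TNFSF12 at 176 and TNFSF9 at 139, and TNF stood at 43.4. In shRNF25 LTB stood at 187 and TNF at 2.25 per kilobase, TNF lying below TNFSF4 at 6.59. Over all members the share of library reads was 0.112% to 0.156% in shControl and 0.132% to 0.137% in shRNF25.

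Set side by side as ligand and receptor, the same per kilobase levels show which side of each pair moved. TNFRSF1A stood at 722 in shControl and 856 in shRNF25 while TNF went from 43.4 to 2.25. LTBR stood at 2.03 times the level of LTB in shControl and 8.63 times in shRNF25. For TNFSF12 and its receptor TNFRSF12A the ratio was 18.3 and 21.5. In other pairs the ligand was present with hardly any receptor. CD70 stood at 57.7 in shControl with CD27 at 0.538, and TNFSF9 at 139 with TNFRSF9 at 1.24. FAS was the reverse, at 62.4 with FASLG at 0.195.

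**Figure D3:**
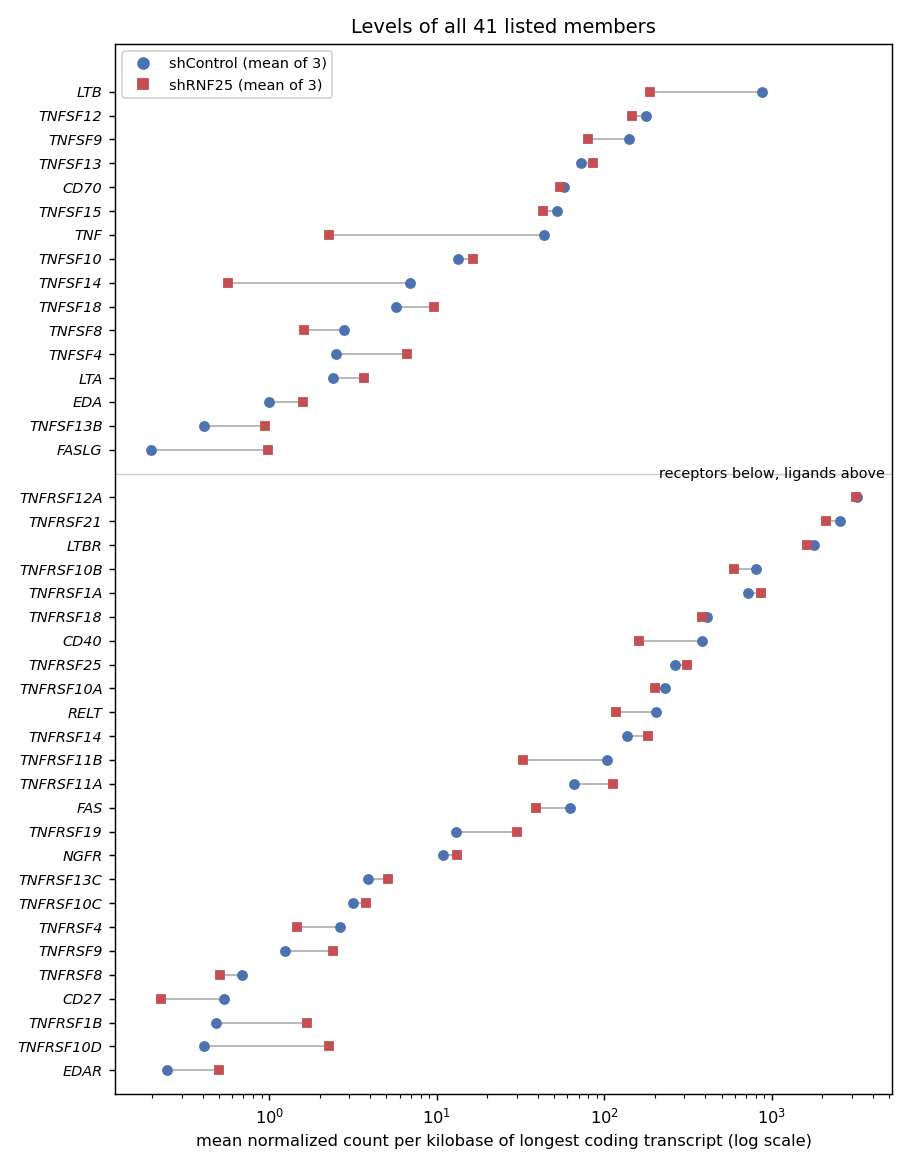
Mean normalized count per kilobase of the longest coding transcript (horizontal axis, log scale) of all 41 members in shControl (circles) and shRNF25 (squares), joined by a line for each gene. Receptors such as TNFRSF12A, at 3222 in shControl, head the family, and TNF moves from 43.4 to 2.25. Points under about 3 per kilobase rest on few reads.

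Genes around the family were read from 5 lists covering signaling next to the receptors, NF-κB subunits and inhibitors, ligand and receptor cleavage, regulators of TNF mRNA and genes named as TNF-induced. Of 74 listed genes 68 were tested, and 13 were lower in shRNF25 (19.1%, beside 7.1% of all tested genes). The lists were chosen with earlier results of these data known, so this share cannot count as independent evidence. With limma none of the 68 was higher, beside 8.65% of all tested genes. Even so, 5 had an unadjusted p under 0.05 upward and 3 an adjusted p under 0.05, and edgeR and DESeq2 each called 1, RIPK1. The median log2 change over the 68 was -0.18. RIPK1, the kinase that steers TNF receptor signaling to survival or death, went from 551 to 825 normalized counts, a log2 change of 0.58 (limma adjusted p = 0.0073), just under the fold criterion.

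Of the 35 tested genes next to the receptors, 5 were lower (14.3%, beside 7.1% of all tested genes). TNFAIP3 encodes A20, a ubiquitin-editing inhibitor of NF-κB, and fell from 3786 ± 383 to 832 ± 102 normalized counts (SD, n = 3 each), a log2 change of -2.19 ± 0.13 (SE; limma adjusted p = 1.64e-05). TNIP1, which encodes a partner of A20, fell from 12579 to 3354, a log2 change of -1.90 (limma adjusted p = 1.11e-05). CASP10, an initiator caspase, had a log2 change of -1.62, BIRC3, a ubiquitin ligase of the TNF receptor complex, one of -1.18 and TRAF5, a receptor adaptor, one of -1.10. Among the genes not past the criteria were those of the adaptors TRADD (-0.20), FADD (0.28), TRAF2 (-0.16) and TRAF6 (-0.03) and of caspase 8 (-0.11). MADD (0.35) and IKBKB (0.43) had limma adjusted p values of 0.0329 and 0.0244 at a fold change under 1.5.

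Among 10 NF-κB subunits and inhibitors 3 were lower (30.0%, beside 7.1% of all tested genes), with a median log2 change of -0.49 over the list. NFKBIA, the main IκB inhibitor, fell from 5994 ± 590 to 2704 ± 293 normalized counts (SD, n = 3 each), a log2 change of -1.15 (limma adjusted p = 0.000328). REL, an NF-κB subunit, had a log2 change of -0.85 and NFKBIZ, an atypical IκB protein, one of -0.79, while RELA stood at -0.43 and NFKB1 at 0.08 and were not past the criteria. Of the 8 tested cleavage genes only RHBDF2, a partner of the TNF sheddase, was lower (12.5%, beside 7.1% of all tested genes). Its log2 change was -0.82 (limma adjusted p = 0.000532), and the sheddase gene ADAM17 itself stood at -0.26.

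Regulators of TNF mRNA included 2 lower genes of 11 (18.2%, beside 7.1% of all tested genes). ZC3H12A, which encodes the ribonuclease Regnase-1, fell from 2937 ± 382 to 739 ± 199 normalized counts (SD, n = 3 each), a log2 change of -2.01 (limma adjusted p = 0.000175), and ZFP36L1, an AU-rich element binding protein, had a log2 change of -0.81, with its close relative ZFP36 at -0.02. Of the 5 tested genes named for induction by TNF, 3 were lower, beside 7.1% of all tested genes. TNFAIP3, already counted among the genes next to the receptors, is one of them, and TNFAIP2 and TNFAIP8 had log2 changes of -1.53 and -0.65. Calls for REL, ZFP36L1 and TNFAIP8 were kept in 3, 1 and 1 of the 6 fits that left out a library, and the other 10 lower genes kept theirs in all 6.

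**Figure D4:**
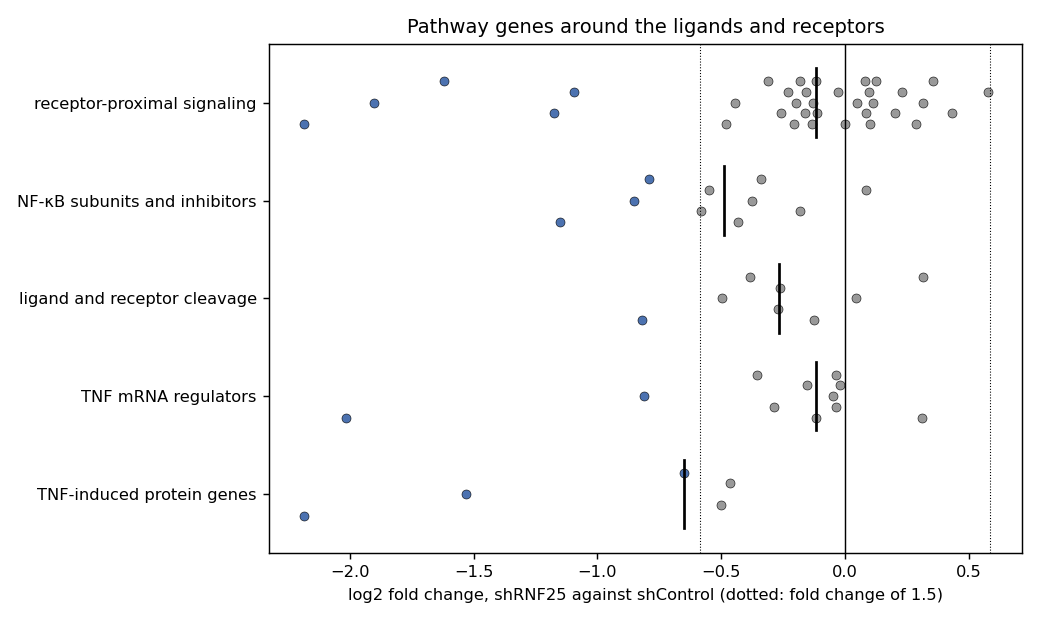
Log2 fold change, shRNF25 against shControl (horizontal axis), of the tested genes of 5 pathway lists, 1 point per gene, with genes lower past the criteria in blue, other genes in grey, a black bar at each median and dotted lines at a fold change of 1.5. The 13 lower genes lie to the left, led by TNFAIP3 at -2.19, and RIPK1 at 0.58 lies just inside the right dotted line.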

How the data were processed

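Total RNA was sequenced from 3 shRNF25 and 3 shControl libraries of SW839 cells, with ribosomal RNA removal and a stranded kit per the methods. The submitters' notes name fastp, HISAT2, HTSeq and GRCh38, and whether counting used strand is not given in the sources used here. The authors deposited one table of gene signal as counts normalized by size factors, from which 100% of values gave whole reads within 0.01 of a read. Members and lists were chosen with earlier results of these data known. Genes at 10 or more normalized counts in 3 libraries were tested with limma 3.58.1 (R 4.3.3, trended eBayes) on log2(normalized count + 1), Benjamini-Hochberg adjusted over 16554 genes, with the study's criteria (adjusted p of 0.05, fold change of 1.5). This differs from the authors' DESeq2 on counts. The test was checked on simulated reads with the same dispersion in both groups. That check does not cover the wider spread of these control libraries. Members past the criteria, at 3 reads or fewer throughout 1 group, or among the 3 highest ligands and receptors were named with every library's value, as were TNF, TNFRSF1A and TNFRSF1B, with up to 4 pathway genes past the criteria in each list. Other genes named with values were chosen after these were seen. Alternatives were edgeR 4.0.16, DESeq2 1.42.0, other pseudocounts, filters and scalings, a replicate block and each library left out. Positions came from GENCODE 29 by symbol.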

Additional observations from a re-analysis of the deposited data

How the results depend on the processing

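The calls of TNF, TNFSF14, LTB, CD40, TNFRSF11A and TNFRSF19, 6 of the 9, were kept in every one of 15 alternative fits that tested them at a fold change of 1.5, and among those fits RELT, FAS and TNFSF4 were lost only where a library was left out. At a fold change of 2, RELT, FAS and TNFRSF11A were lost, leaving 4 members lower and 2 higher. TNFSF14 and TNFSF4 were not tested at a minimum of 50. Without 1 library, 4 to 7 members were lower and 2 to 4 higher, and over all tested genes 813 to 1269 were lower and 748 to 1725 higher. Without shRNF25 replicate 1, 2 or 3 these were 813, 827 and 823 lower and 748, 824 and 831 higher, beside 1175 and 1432 with every library. At a fold change of 2, over all tested genes, 513 were lower and 893 higher, and 8 pathway genes were lower. At a minimum of 50 in 3 libraries 898 genes were higher. Pathway genes past the criteria numbered 10 to 14 lower and 0 to 1 higher without 1 library, and 1 (RIPK1) was higher under quantile normalization, under rescaling on genes with a mean of at least 100, with edgeR and with DESeq2. Changes of direction were seen only in members not past the criteria, with main log2 changes from -0.21 (TNFSF12) to 0.29 (TNFRSF25). LTBR was 0.0025 under quantile normalization, TNFRSF18 was 0.0432 under quantile normalization and 0.0561 under rescaling, and TNFRSF12A was -0.0174 with DESeq2. Without 1 library TNFRSF18 ran from -0.36 to 0.25, TNFRSF12A from -0.22 to 0.17 and TNFSF12 from -0.43 to 0.0486. CD70 ran from -0.16 to 0.0038 and TNFRSF25 from -0.0064 to 0.51. RNF25 kept its direction, from -1.34 to -1.15. The causes were not tested.

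Same-numbered libraries of the groups did not vary together (correlations of deviations -0.064, -0.087 and 0.047), and the main test did not pair them. Between differently numbered libraries the correlations ran from -0.139 to 0.183, the highest for shControl replicate 1 with shRNF25 replicate 2. Whether any libraries shared a preparation was not tested. With the replicate block 7 members were lower (TNFRSF11B added) and 3 higher, and 1193 genes were lower and 1398 higher.

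Depth limits the members under the filter, where a few reads set each value. With 3 libraries a group and 1 cell line, limma p-values set a group difference against variation between these libraries, moderated over the tested genes. Changes smaller than the fold criterion were not counted.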
